A study of Homo sapiens with 3 samples.

Results

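Lysosomal cathepsins, lysosomal membrane glycoproteins and their soluble partners were examined in THP-1, a line of human monocytic leukemia cells driven by the MLL-AF9 fusion protein. The 10 genes were chosen by name through their UniProt accessions, out of 213543 features in the table. They are CTSB (P07858), CTSD (P07339), CTSH (P09668), CTSL (P07711), CTSS (P25774), CTSZ (Q9UBR2), LAMP1 (P11279), LAMP2 (P13473), GRN (P28799) and PSAP (P07602). RNA was sequenced from untreated cells (0 h) and from cells kept for 8 h or 24 h with GSK-LSD1. GSK-LSD1 is an inhibitor of the histone demethylase LSD1 that was used to induce monocytic differentiation. The methods state a dose of 0.2 µM for 8 h, which is taken here to hold for 24 h as well. Each time point is 1 library of 1 cell line, so every difference compares libraries, has no replicate check and carries no p-value. The control is the 0 h library, and no time-matched untreated library was analysed here, so time in culture and treatment cannot be told apart.

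Cathepsins are proteases that digest proteins inside the acidic lysosome. They are made as inactive precursors, sorted to the lysosome by receptors and activated there, and they are held in check by cystatins. LAMP1 and LAMP2 are heavily glycosylated proteins that line the lysosomal membrane. Monocytes and macrophages are rich in lysosomes, which they use to digest engulfed material and to prepare antigens for presentation.

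Of the 10 genes, 5 had at least 10 counts in every library, namely CTSB, CTSS, CTSZ, LAMP1 and LAMP2. The accessions of CTSH, CTSL, GRN and PSAP were listed at 0 in all 3 libraries, and CTSD was not analysed here, since its accession matched no row. At a count of 0, the one-sided 95% limit is 3 counts, or 1.95 CPM (counts relative to the TMM-scaled library total) at 0 h, 2.34 CPM at 8 h and 2.11 CPM at 24 h. The two-sided exact interval used for the other levels ends at 2.40, 2.88 and 2.60 CPM. Both limits cover counting error only, and they apply to counted reads, not to expression. Of 73321 features named by an accession, 53799 were at 0 in all libraries. They include subunits of the lysosomal proton pump that every cell uses, such as ATP6V0C (P27449) and ATP6V1B2 (P21281), examples that were chosen after their values were seen. A value of 0 here is therefore not read as absence of the transcript, and reads of a gene at 0 may stand under another accession. Reads of a counted gene may also stand in part under other features, so the levels below are those of 1 accession. In GENCODE v44, 62.1% of the exon bases of CTSB lie in 2 or more transcripts. For CTSS, CTSZ, LAMP1 and LAMP2 the shares are 58.1%, 47.8%, 40.3% and 25.4%. How reads shared by overlapping features were counted is not given in the sources used here.

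The total count was 1475938 at 0 h, 1310912 at 8 h and 1444011 at 24 h. Counts of the mitochondrial ribosomal RNAs set the libraries apart, with 2373 in the 0 h library, 12 at 8 h and 1014 at 24 h. Their part in the results below was not tested. Of 11 markers of monocytic identity, 6 reached 10 counts. PTPRC, the pan-leukocyte marker CD45, had 617, 522 and 521 counts, and SPI1, the myeloid transcription factor PU.1, had 69, 87 and 102. LYZ, lysozyme, had 655, 747 and 1773, and ITGAM, the integrin CD11b, had 87, 120 and 339. MPO, myeloperoxidase, had 17, 18 and 18, and FCGR1A, the Fc receptor CD64, had 4, 11 and 6. LYZ, ITGAM and SPI1 had their highest CPM at 24 h, as the counted cathepsins did, while PTPRC, MPO and FCGR1A did not, and the part of these markers in the results was not tested. CD14 had 0, 5 and 6 counts, and CD33, CSF1R, FCER1G and TYROBP were listed at 0. Of 9 markers of T cells, B cells, red cells, epithelium, fibroblasts and liver, 8 were at 0 in all libraries, and COL1A1 had 0, 4 and 2 counts.

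Of the 10 genes, the 3 counted cysteine cathepsins were all higher after GSK-LSD1. CTSB, an endo- and exopeptidase found in most cells, was counted 44 times at 0 h, 91 times at 8 h and 128 times at 24 h, or 28.6, 71.1 and 90.1 CPM. It lies on the reverse strand of chromosome 8, from 11842524 to 11869533 (GENCODE v44, GRCh38, as for all loci here). The 0 h library was the lowest, and the exact (Poisson) 95% intervals of the CPM at 0 h (20.8 to 38.5) and at 8 h (57.2 to 87.3) did not overlap. Its ratio was 2.48-fold at 8 h against 0 h, with an exact 95% counting interval of 1.71 to 3.64, and 3.15-fold at 24 h (2.22 to 4.54). Between 8 h and 24 h the ratio was 1.27-fold, and its interval of 0.962 to 1.68 includes 1. By these estimates, most of the difference in CTSB was already present at 8 h. The lower limit of the first step (1.71) is only just above the upper limit of the second (1.68). Both steps share the 8 h count of 91, so an error in it moves their ratios in opposite directions. The difference between the steps was not tested.

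CTSS, which trims the invariant chain of MHC class II in antigen-presenting cells, had 212, 324 and 434 counts in the 0 h, 8 h and 24 h libraries. It lies on the reverse strand of chromosome 1, from 150730079 to 150765957. Its level was 138, 253 and 306 CPM, with no overlap between the interval at 0 h (120 to 158) and that at 8 h (226 to 282). The ratio was 1.83-fold at 8 h (1.54 to 2.19) and 2.21-fold at 24 h (1.88 to 2.62). The step from 8 h to 24 h was 1.21-fold (1.04 to 1.40), which is smaller than the step before it.

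CTSZ, a carboxypeptidase also known as cathepsin X, had 384, 523 and 822 counts, or 250 CPM at 0 h, 408 at 8 h and 579 at 24 h. The 3 libraries were in the order of time, and their intervals (226 to 276, 374 to 445 and 540 to 620) did not overlap. The ratio was 1.63-fold at 8 h (1.43 to 1.87) and 2.32-fold at 24 h (2.05 to 2.62), and the second step was 1.42-fold (1.27 to 1.58). CTSZ lies on the reverse strand of chromosome 20, from 58985686 to 59008238. Exons of other genes, among them NELFCD on the forward strand, cover 31.7% of its exon bases. The share of NELFCD alone was not measured. Whether counting used strand is not given in the sources used here. Reads of such genes therefore cannot be told apart from those of CTSZ in that stretch. The accession of NELFCD (Q8IXH7), looked up after the overlap was seen, was listed at 0. Exons of other genes covered 0% of the exon bases of CTSB, CTSS, LAMP1 and LAMP2.

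Together, CTSB, CTSS and CTSZ were counted 640 times at 0 h, 938 times at 8 h and 1384 times at 24 h. Their summed counts were 1.76-fold higher at 8 h than at 0 h (1.59 to 1.95) and 2.34-fold higher at 24 h (2.13 to 2.57). CTSZ held most of these counts, so the sum follows it more than CTSB. A bulk library does not tell more RNA per cell apart from more cells that express the gene.

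**Figure D1:**
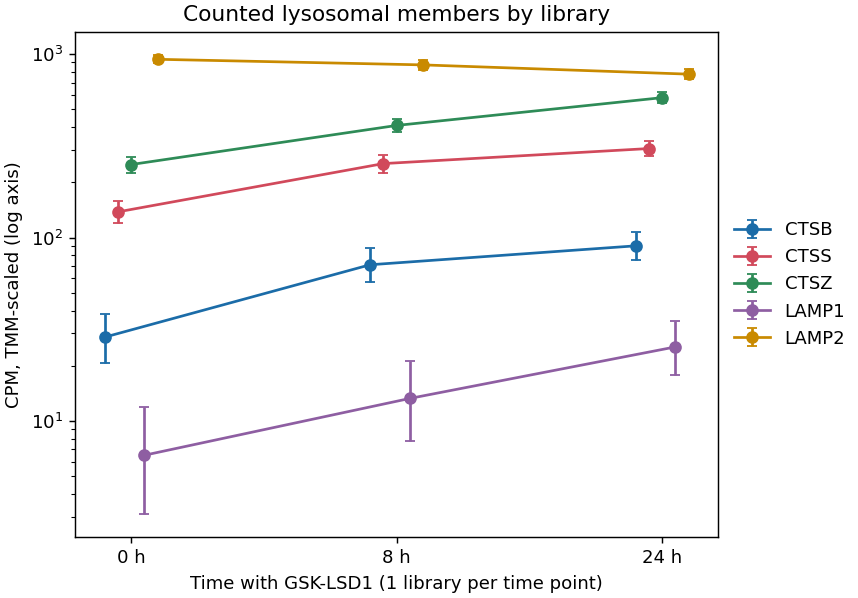
Level of the 5 counted genes in each library, as TMM-scaled CPM on a log axis against time with GSK-LSD1. Points are single libraries and bars are exact 95% Poisson intervals, which cover counting error only. CTSB, CTSS, CTSZ and LAMP1 are lowest at 0 h and highest at 24 h, while LAMP2 is highest at 0 h.

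The 2 membrane glycoproteins differed from each other. LAMP1, on the forward strand of chromosome 13 from 113297239 to 113323672, was counted 10 times at 0 h, 17 times at 8 h and 36 times at 24 h, or 6.51, 13.3 and 25.4 CPM. These are few counts, and the intervals of neighbouring time points overlapped (3.12 to 11.97, 7.73 to 21.3 and 17.8 to 35.1), but those of 0 h and 24 h did not. The ratio was 2.04-fold at 8 h (0.882 to 4.98), where the interval includes 1, and 3.89-fold at 24 h (1.89 to 8.80). Between 8 h and 24 h it was 1.91-fold (1.04 to 3.62).

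LAMP2, which also takes part in chaperone-mediated autophagy, had 1439, 1118 and 1104 counts. It lies on the reverse strand of chromosome X, from 120426148 to 120469365. Its level was 937 CPM at 0 h, 873 at 8 h and 777 at 24 h, the reverse order of the other 4 genes. The ratio at 24 h against 0 h was 0.830-fold (0.767 to 0.898), so LAMP2 was lower at 24 h by more than counting error. At 8 h against 0 h it was 0.932-fold, and its interval of 0.861 to 1.01 includes 1. The ratio at 24 h against 8 h was 0.890-fold (0.818 to 0.968).

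**Figure D2:**
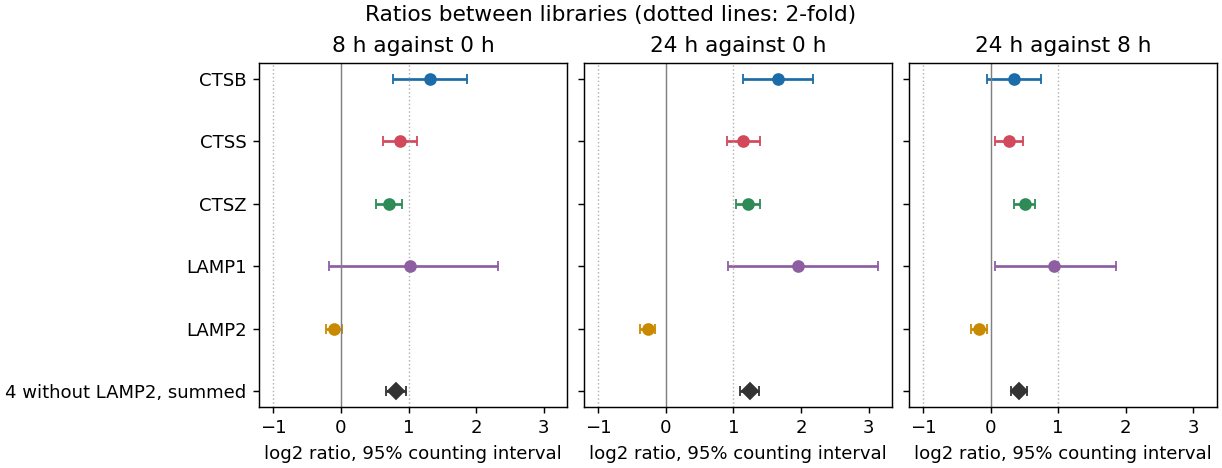
Log2 ratios of the 5 counted genes and of the summed counts of 4 of them between pairs of libraries, with exact 95% counting intervals as bars and dotted lines at 2-fold. CTSB, CTSS and CTSZ lie above 0 in both comparisons with 0 h, LAMP1 has the widest intervals, and LAMP2 lies at or below 0.

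A feature was called past 2-fold when its log2 fold change, with a prior count of 2, was beyond 1, and 9609 features entered, those that reached 10 counts in a library. At 8 h against 0 h, 1 of the 5 counted genes was past 2-fold higher (CTSB), against 4.51% of all features, and 0 were past it lower, against 6.02%. LAMP1, at 2.04-fold without the prior count, had a log2 fold change of 0.89 with it. The counting interval lay above 0 on the log2 scale for 3 genes (CTSB, CTSS and CTSZ), against 11.7% of all features, and below 0 for 0, against 9.71%. At 24 h against 0 h, 4 genes were past 2-fold higher, against 6.19% of all features, and 0 lower, against 5.58%. The interval lay above 0 for the same 4, against 13.0%, and below 0 for LAMP2 alone, against 12.6%. From 8 h to 24 h, 0 genes were past 2-fold in either direction, against 4.03% of all features higher and 1.97% lower. The interval of that step lay above 0 for CTSS, CTSZ and LAMP1, against 4.87%, and below 0 for LAMP2, against 5.58%. With a loess correction for mean level, the LAMP2 ratio of that step was -0.11 on the log2 scale, and its interval of -0.23 to 0.01 includes 0.

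The median log2 ratio of the 5 genes was 0.87 at 8 h and 1.21 at 24 h against 0 h, where the median over all 9609 features was -0.011 at both. All 5 had at least 10 counts at 0 h, so none passed the minimum of 10 counts through a treated library alone. At 24 h, LAMP1 had a log2 ratio above those of 98.03% of all features, CTSB above 97.0%, CTSZ above 94.1% and CTSS above 93.8%, while LAMP2 was above 31.8%. Among the 4218 features that reached 50 counts, which are less subject to counting error, 132 were past 2-fold higher at 24 h and 76 lower. CTSB, CTSS and CTSZ are among these 132, but CTSB, with 44 counts at 0 h, reached 50 only in the treated libraries, and LAMP1 did not reach 50. Of the same 4218 features, the counting interval lay above 0 for 841 at 24 h and for 852 at 8 h. It lay below 0 for 893 at 24 h and for 614 at 8 h.

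**Figure D3:**
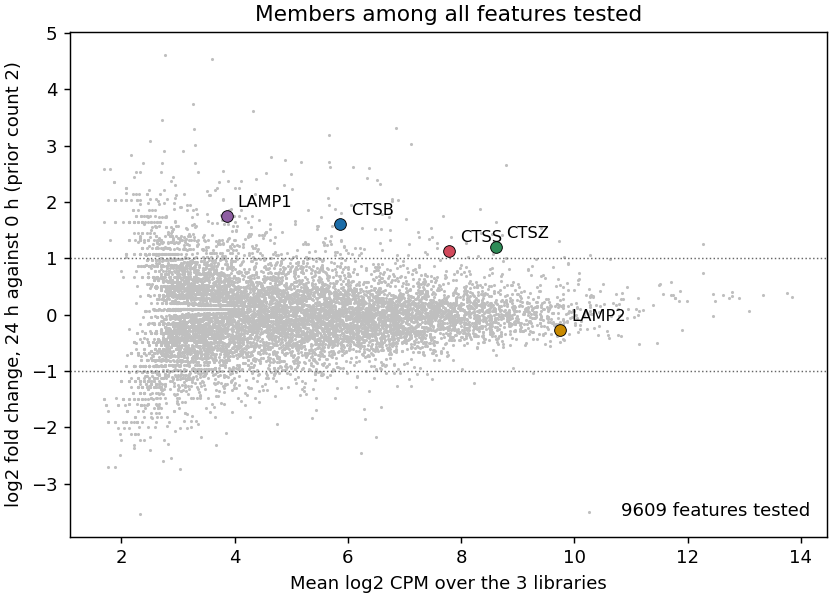
Log2 fold change at 24 h against 0 h (prior count 2) against mean log2 CPM for 9609 features in grey, with the 5 counted genes in colour and dotted lines at 2-fold. CTSB, CTSS, CTSZ and LAMP1 lie above the upper line, and LAMP2 lies just below 0 among the features with many counts.

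The genes were also compared within each library, which needs no scaling of library sizes. LAMP2 held 68.9% of the 2089 counts of the 5 genes at 0 h (exact 95% interval 66.9% to 70.9%), 53.9% of 2073 at 8 h (51.8% to 56.1%) and 43.7% of 2524 at 24 h (41.8% to 45.7%). CTSZ went from 18.4% (16.7% to 20.1%) to 25.2% (23.4% to 27.2%) and 32.6% (30.7% to 34.4%). CTSS held 10.2%, 15.6% and 17.2%, and CTSB 2.11%, 4.39% and 5.07%. LAMP1 held the least, with 0.479%, 0.820% and 1.43%. These shares are of counts and are not adjusted for transcript length, so only their changes between libraries are compared.

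**Figure D4:**
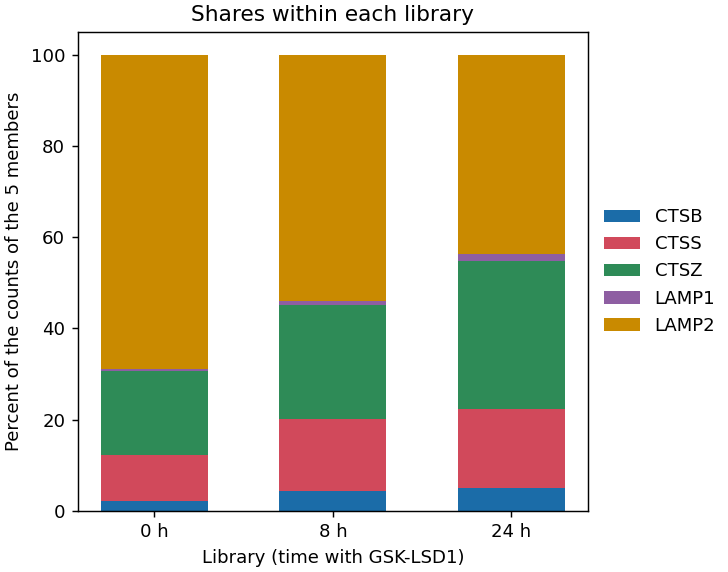
Share of the summed counts of the 5 counted genes held by each gene, in percent, in the 0 h, 8 h and 24 h libraries. The share of LAMP2 is 68.9% at 0 h and 43.7% at 24 h, and that of CTSZ is 18.4% and 32.6%.

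Each pair of the 5 genes was compared by the change of their count ratio between libraries (10 pairs). At 24 h against 0 h, the exact 95% interval of this change excluded 0 on the log2 scale for 4 pairs, all of them pairs with LAMP2. The change relative to LAMP2 was 1.92 for CTSB (1.40 to 2.46), 1.42 for CTSS (1.15 to 1.69), 1.48 for CTSZ (1.27 to 1.69) and 2.23 for LAMP1 (1.18 to 3.41). Among the cathepsins, CTSB against CTSS gave 0.51 (-0.06 to 1.09), CTSB against CTSZ 0.44 (-0.10 to 1.002) and CTSS against CTSZ -0.06 (-0.37 to 0.24). A difference between the cathepsins was thus not detectable at this depth at 24 h. At 8 h against 0 h the CTSB change exceeded that of CTSZ by 0.60 (0.03 to 1.19). LAMP1 against LAMP2 at 8 h gave 1.13, and its interval of -0.09 to 2.42 includes 0.

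Promoters are shown for LAMP1 and CTSZ, the 2 counted genes with an entry in the RefSeq promoter table (GRCh38.p14), which also holds entries for CTSD, CTSH, CTSL and GRN. Many lysosomal genes carry the letters CACGTG near their start, a site that the MITF and TFE family of transcription factors is known to bind. Each sequence is the 250 bases before the annotated start, 5′ to 3′ on the gene's strand, with CACGTG in capitals. The LAMP1 window is chr13:113296989-113297238 on the forward strand, and the CTSZ window is chr20:59007255-59007504 on the reverse strand. The LAMP1 window ends where its GENCODE locus starts (113297239). The CTSZ window lies inside its GENCODE locus (58985686 to 59008238), because RefSeq and GENCODE place the outermost start differently. Bases before the outermost GENCODE start of CTSZ were not searched.
LAMP1: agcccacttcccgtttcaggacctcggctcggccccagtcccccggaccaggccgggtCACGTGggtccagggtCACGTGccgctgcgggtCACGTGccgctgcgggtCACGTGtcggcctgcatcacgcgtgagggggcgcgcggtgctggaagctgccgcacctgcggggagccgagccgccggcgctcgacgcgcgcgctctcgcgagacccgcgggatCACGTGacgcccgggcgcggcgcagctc
CTSZ: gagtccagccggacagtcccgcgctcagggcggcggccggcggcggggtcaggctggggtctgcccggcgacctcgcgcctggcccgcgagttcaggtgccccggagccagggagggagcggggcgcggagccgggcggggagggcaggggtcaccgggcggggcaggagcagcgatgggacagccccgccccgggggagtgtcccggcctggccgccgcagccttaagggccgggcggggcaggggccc

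LAMP1 held 5 copies of CACGTG, starting 192, 176, 159, 142 and 28 bases before the start, and CTSZ held 0. CACGTG reads the same on both strands. Of 35116 windows of the same length, 6.34% held it, and 1 window, that of LAMP1, held 5 or more. The longer letters TCACGTG, searched on both strands and always overlapping CACGTG, were at all 5 LAMP1 positions and in 3.31% of all windows. Of the uncounted genes, CTSD held 1 copy, 47 bases before its RefSeq start, and CTSH, CTSL and GRN held 0. The windows of CTSD, CTSH and CTSL also lie inside their GENCODE loci, and that of GRN does in part. Of 116 windows of the other lysosomal genes described below, 20.7% held CACGTG. These are matches of letters and not measured binding sites.

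Features named by Ensembl transcript identifiers gave a second readout of the same genes. GENCODE v44 assigned 38 such features to the 10 genes, 29 of them retained-intron transcripts and 0 protein-coding, and 15 had any count. Together they were counted 26, 30 and 40 times in the 3 libraries, and their log2 ratio was 0.73 between 0 h and 24 h (-0.01 to 1.51). CTSH, an aminopeptidase whose accession was at 0, had 3, 7 and 14 counts over 12 such features. Its log2 ratio was 2.34 at 24 h (0.49 to 4.78) and 1.49 at 8 h (-0.65 to 4.07). Of these, 1, 4 and 10 counts were on the retained-intron transcript ENST00000527715, on chromosome 15 from 78921765 to 78945029, and 40.4% of its bases lie in exons of coding CTSH transcripts. These counts are low, and they are not a measure of coding CTSH transcripts.

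The LAMP1 retained-intron transcript ENST00000472564 had 10, 10 and 13 counts. The interval of its log2 ratio of 0.49 at 24 h (-0.81 to 1.84) overlaps that of the LAMP1 accession (0.92 to 3.14). The CTSZ transcript features had 8, 9 and 6 counts and a log2 ratio of -0.30 at 24 h (-2.11 to 1.42). GRN, which encodes progranulin, had 2, 1 and 1 counts on its transcript features, and PSAP, the precursor of the saposins that help to break down sphingolipids, had 0, 0 and 2. CTSD, the main aspartic protease of lysosomes, had 2, 1 and 1. CTSL, another cysteine cathepsin, had 0 in each library, as had 10 features of pseudogenes named after any of the 10 genes. No change could be shown for these genes at this depth.

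The other genes of the lysosome were taken from a list of 109 genes in 9 roles. Of these, 4 had no matching row, 45 were at 0 in all libraries and 42 reached 10 counts in a library. The accessions at 0 (49 with the 4 above) had a median of 5 coding transcripts in GENCODE, and the 47 that reached 10 counts had a median of 4. At 24 h against 0 h, 5 of the 42 were past 2-fold higher and 1 lower, against 6.19% and 5.58% of all features. The counting interval lay above 0 for 15 and below 0 for 4, against 13.0% and 12.6%. Among the 4218 features that reached 50 counts, it lay above 0 for 841 and below 0 for 893. Not all of the 42 reached 50 counts. The 5 past 2-fold higher were MITF, SORT1, DNASE2, FUCA1 and NPC1, and the 1 lower was HEXA. NPC1, a cholesterol exporter with 1, 10 and 11 counts, and HEXA, with 20, 16 and 7, are named after their values were seen. NPC1 and MITF reached 10 counts only in the treated libraries, where they were high. At 8 h, 4 were past 2-fold higher and 1 lower, against 4.51% and 6.02% of all features. The interval at 8 h lay above 0 for 10 and below 0 for 3, against 11.7% and 9.71%. Among the 4218 features it lay above 0 for 852 and below 0 for 614. The median log2 ratio of the 42 was 0.15 at 24 h and 0.13 at 8 h, against 1.21 and 0.87 for the 5 counted genes above. Each role below holds few counted genes, so counts within a role are not read as patterns of that role.

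Among 15 other lysosomal proteases, 4 were counted. The interval at 24 h lay above 0 for 1 of them, against 13.0% of all features. It was CTSO (92, 99 and 117 counts), named after its values were seen. CTSV, a close relative of CTSL, had 38, 42 and 52 counts, and its log2 ratio at 24 h was 0.57 (-0.07 to 1.21). CTSC, which activates granule serine proteases, had 109, 62 and 97 counts, with ratios of -0.55 at 8 h (-1.03 to -0.09) and -0.05 at 24 h (-0.46 to 0.35). These 2 had the highest and the lowest ratio of the group at 24 h among those that reached 50 counts.

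Of the inhibitors, CST3, the secreted cystatin C, had 1083, 1133 and 1445 counts, and its log2 ratio at 24 h was 0.53 (0.41 to 0.64). SLPI, a serine protease inhibitor that also shields progranulin from cleavage, had 220, 211 and 263 counts and a ratio of 0.37 (0.11 to 0.64). The interval included 0 for CSTA, the cytosolic stefin A, with 162, 148 and 184 counts (-0.02 to 0.61). CST7, cystatin F, had 10, 3 and 9 counts. The interval therefore lay above 0 at 24 h for 2 of the 4 counted inhibitors, against 13.0% of all features. Past 2-fold were 0 of them, against 6.19% of all features higher and 5.58% lower.

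Of the proteins that sort enzymes to the lysosome, 6 were counted. The interval at 24 h lay above 0 for 3 of them, against 13.0% of all features. SORT1, sortilin, which binds progranulin and prosaposin on their way to or into the cell, was counted 79 times at 0 h, 145 times at 8 h and 304 times at 24 h. Its log2 ratio was 1.14 at 8 h (0.73 to 1.55), 2.06 at 24 h (1.70 to 2.43) and 0.92 from 8 h to 24 h (0.63 to 1.21). GNPTAB, which makes the mannose 6-phosphate tag of lysosomal enzymes, had 99, 135 and 166 counts and a ratio of 0.86 at 24 h (0.49 to 1.23). IGF2R, the receptor of that tag, had 1066, 1035 and 1111 counts and a ratio of 0.17 (0.05 to 0.30). The intervals at 24 h included 0 for SORL1 (277, 264 and 280 counts), GGA1 (54, 42 and 47) and GGA2 (219, 127 and 187). GGA2, an adaptor for sorting at the Golgi, was lower at 8 h, with a ratio of -0.52 (-0.85 to -0.20).

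Of the transcription regulators, MITF had 9, 39 and 53 counts, with log2 ratios of 2.38 at 8 h (1.31 to 3.61) and 2.67 at 24 h (1.64 to 3.88). TFE3, of the same family, had 100, 87 and 77 counts and a ratio of -0.26 at 24 h (-0.71 to 0.18). ZKSCAN3, a repressor of lysosomal and autophagy genes, had 44, 36 and 51 counts and a ratio of 0.33 (-0.28 to 0.94). TFEB, the best known activator of lysosomal genes, had 0, 2 and 1 counts, too few for a ratio, and is named after its values were seen. Of the 3 counted regulators, MITF alone had an interval at 24 h that excluded 0. Over all features, the interval lay above 0 for 13.0% and below 0 for 12.6%. With 9 counts at 0 h, MITF reached 10 only in the treated libraries.

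The hydrolases were mixed. FUCA1, which removes fucose from glycans, had 44, 49 and 91 counts and a log2 ratio of 1.16 at 24 h (0.63 to 1.72). Of 7 counted glycan-degrading enzymes, the interval at 24 h lay above 0 for 3 (FUCA1, and GAA and ARSB, named after their values were seen) and below 0 for 0. Of 6 counted lipid-degrading or lipid-handling proteins, it lay above 0 for 3 (GM2A, NPC1 and, named after its values were seen, PLBD2) and below 0 for 2 (GALC and HEXA). Over all features, it lay above 0 for 13.0% and below 0 for 12.6%. GM2A, the activator protein for ganglioside breakdown, had 376, 400 and 523 counts and a ratio of 0.59 (0.40 to 0.78). GALC, which degrades galactosylceramide, had 75, 53 and 39 counts and a ratio of -0.83 (-1.43 to -0.25). DNASE2, the acid DNase of lysosomes, had 24, 51 and 75 counts, with ratios of 1.35 at 8 h (0.62 to 2.12) and 1.76 at 24 h (1.08 to 2.49). CREG1, a lysosomal glycoprotein, had 488, 391 and 407 counts and a ratio of -0.15 (-0.34 to 0.04).

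Of 5 other counted membrane proteins, 0 were past 2-fold at 24 h, against 6.19% of all features higher and 5.58% lower. LAMP5, a relative of LAMP1 and LAMP2, had 450, 422 and 537 counts and a log2 ratio of 0.37 at 24 h (0.18 to 0.55). SLC17A5, which exports sialic acid from lysosomes, had 333, 215 and 233 counts and a ratio of -0.40 (-0.65 to -0.16). Of 5 counted subunits of the V-ATPase, the proton pump that acidifies lysosomes, the interval at 24 h lay above 0 for 0 and below 0 for 1. The shares over all features were 13.0% above 0 and 12.6% below. ATP6V1C1 had 290, 251 and 278 counts and a ratio of 0.05 (-0.19 to 0.29), and ATP6V1G1 had 224, 158 and 148 counts and a ratio of -0.48 (-0.79 to -0.18).

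**Figure D5:**
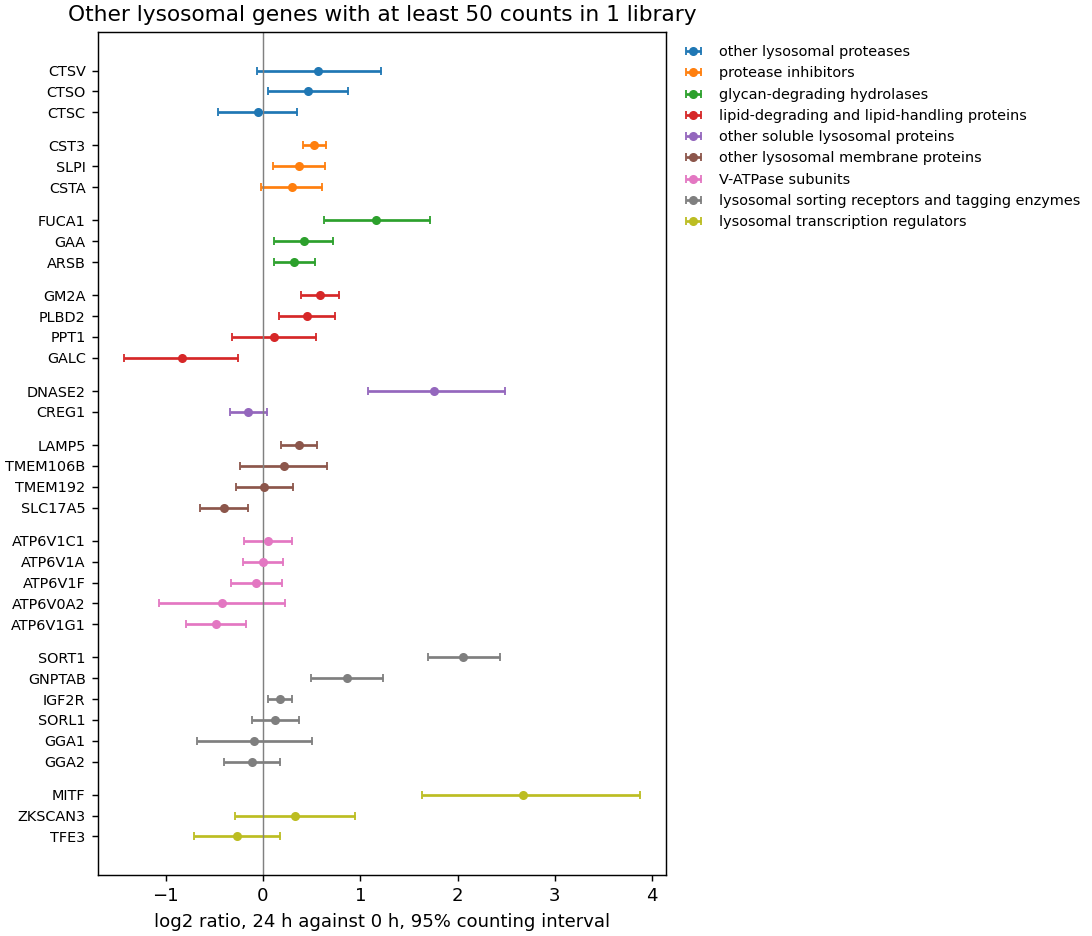
Log2 ratios at 24 h against 0 h of other lysosomal genes that reached 50 counts and are reported here, grouped by role and coloured by group, with exact 95% counting intervals as bars. MITF, SORT1, DNASE2 and FUCA1 lie above 1, the V-ATPase subunits lie near or below 0, and GALC is the lowest.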

How the data were processed

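THP-1 cells were sequenced before and after 8 h or 24 h of GSK-LSD1, in singlicate. Libraries were prepared from total RNA after ribosomal RNA removal (KAPA RNA HyperPrep with RiboErase). The authors deposited raw read counts for each feature, all of them whole numbers. Submitters' processing notes name fastp, STAR and hg38, and the methods name Seq2science. The counter, annotation and strand setting are not given in the sources used here.

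Features carry UniProt accessions or Ensembl transcript identifiers. No table used here pairs accessions with genes, so their gene names were written from knowledge of UniProt and not checked against a table, and transcripts were named through GENCODE v44. The 10 genes, the lists, the lookup of NELFCD and the transcript features were chosen with earlier results of these data known. Other lysosomal genes were named by rule. These were the highest and lowest log2 ratio at 24 h per role among those that reached 50 counts, and all inhibitors, sorting proteins and regulators that reached 10 counts. Any gene outside these is said to be chosen after its values were seen, apart from markers. A gene that the rule names is not reported here.

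Library sizes were scaled by TMM (edgeR 4.0.16, R 4.3.3), with factors of 1.04, 0.977 and 0.984 at 0 h, 8 h and 24 h. No prior count entered the ratios of single features. Intervals are exact (Clopper-Pearson) 95% intervals conditional on the sum of both counts. Changes of count ratios are conditional odds ratios (scipy 1.17.1). All cover counting error only, because each time point has 1 library. No molecular identifiers are described, and the effect of duplicate reads was not tested. The calculations were tested on simulated counts. Alternatives were DESeq2 1.42.0 size factors, total counts, other prior counts, filters and thresholds, a loess correction (statsmodels 0.14.6), added transcript features and scaling without the 8 h library.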

Additional observations from a re-analysis of the deposited data

How the results depend on the processing

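Across the alternatives, 230 values stayed within the main interval or within 1.5 times the main count, 13 moved and 0 reversed. The threshold of 1.5-fold gave 4 genes past it higher at 8 h against 0 h in place of 1, and 1 at 24 h against 8 h in place of 0. Adding transcript features to the accessions gave 2 genes past 2-fold higher at 8 h, CTSB and CTSH, in place of 1. At 24 h against 0 h it gave 5 genes in place of 4. CTSH, with 3, 7 and 14 counts, reached 10 only in the 24 h library, where it was high. The interval of its log2 ratio at 8 h (-0.65 to 4.07) includes 0. Total counts, with or without mitochondrial features, and the loess correction each put 1 gene, LAMP2, below 0 by its interval at 8 h against 0 h in place of 0. The log2 ratio of LAMP2 at 8 h was -0.23 with the loess correction, against -0.10. With the loess correction, 0 genes were below 0 at 24 h against 8 h in place of 1, since the log2 ratio of LAMP2 was then -0.11 (-0.23 to 0.01). The log2 ratio of the summed counts of the 5 genes at 8 h was 0.16 by total counts and 0.159 without mitochondrial features, against 0.25. LAMP2 decided these sums, and without it they were 0.82 at 8 h, 1.24 at 24 h and 0.42 at 24 h against 8 h, in place of 0.25, 0.39 and 0.13. The sum without LAMP2 and the scaling of 0 h and 24 h alone, which moved 0 values, were chosen after seeing the data. The causes were not tested, apart from the lower threshold and the gene left out. No paired analysis was possible because each time point has 1 library, and no library could be left out of a group. With 10 to 36 counts, LAMP1 allows a ratio at 24 h between 1.89-fold and 8.80-fold, so its size is poorly set at this depth. With transcript features added, the log2 ratio of LAMP1 at 24 h was 1.41 (0.629 to 2.235), against 1.96.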
